A study of Oryctolagus cuniculus with 4 samples.

Results

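SPP1 encodes osteopontin, a secreted acidic phosphoglycoprotein. In the deposited single-cell matrices it is 1 gene (ENSOCUG00000022536) of 18475, taken by its symbol and followed in each cell class and each sample. The gene was chosen because its level differed between cell classes and conditions in these same data, so its values are given as a description and no test is attached to them. Bladder mucosa of adult New Zealand rabbits was profiled by droplet-based scRNA-seq in 4 samples. Injury_1 and Injury_2 came from a focal mucosal resection 10 days after surgery, when new urothelium had closed over the wound, and Normal_1 and Normal_2 came from bladders in homeostasis. The labels number the samples as replicates without naming animals, so the spread between them may be partly technical.

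Osteopontin belongs to the SIBLING family of integrin-binding secreted glycoproteins. It carries an RGD motif read by alpha-v integrins, binds CD44 and some alpha-4 integrins, and is cut by thrombin and matrix metalloproteases, which changes what it can bind. Epithelia that face urine, the kidney tubule among them, secrete it, and the protein coats calcium crystals and slows their growth. Activated macrophages are a known further source, where SPP1 is typically made together with GPNMB, LPL, FABP5 and other genes of lipid handling.

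The 4 matrices held 6811, 6141, 5823 and 6884 barcodes for Injury_1, Injury_2, Normal_1 and Normal_2, with 28745017 to 47881609 UMIs (unique molecular identifiers, each counting 1 captured transcript end) per library. After quality filtering 21945 cells remained, with a median of 4814 UMIs per cell in Normal_1 and 6755 to 7186 in the other samples. Normal_1 also lost the largest share of barcodes to the mitochondrial limit, 23.8% against 9.66% to 12.4%. Library pairs shared 4 to 12 cell barcodes, at most 0.217% of the kept cells of the smaller library. The labels give the tissue as urothelium, but 6.98% of the kept cells were epithelial-like (1532 cells) and 1195 were macrophage-like; fibroblast-like and endothelial-like cells were more frequent. Classes were named from marker genes, and KRT18 and KRT15, which were among those markers, averaged 1732 and 3464 CPM (UMIs of a gene per 1000000 UMIs summed over the class) in epithelial-like cells against 35 and 60.2 CPM in the other classes.

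SPP1 was an epithelial transcript in every sample. Epithelial-like cells held 95.1% and 93.9% of all SPP1 UMIs of Injury_1 and Injury_2 and 91.6% and 94.7% of those of Normal_1 and Normal_2, although they made up only 2.84% to 10.2% of the cells. In CPM the epithelial level was 21142 and 13487 in Injury_1 and Injury_2 and 6594 and 5924 in Normal_1 and Normal_2 (mean 11787 ± 7112, SD, n = 4). The class with the next highest mean lay 11.9-fold lower. Compared with endothelial-like cells of the same sample, the epithelial level was 122-fold and 295-fold higher in the injured and 42.9-fold and 373-fold higher in the normal samples. Below the epithelium the order of means ran from neutrophil-like cells (993 CPM, 2 samples) through a cluster led by SCN7A and S100B (687 CPM, 3 samples), macrophage-like (304 CPM), mast cell-like (182 CPM), B cell-like (153 CPM, 2 samples), smooth muscle and pericyte-like (126 CPM), T cell-like (118 CPM) and fibroblast-like cells (115 CPM) to endothelial-like cells (97.3 CPM). Each neighbouring pair in that lower order differed by less than the larger SD of the pair. Samples with fewer than 20 cells of a class were left out of its mean.

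**Figure D1:**
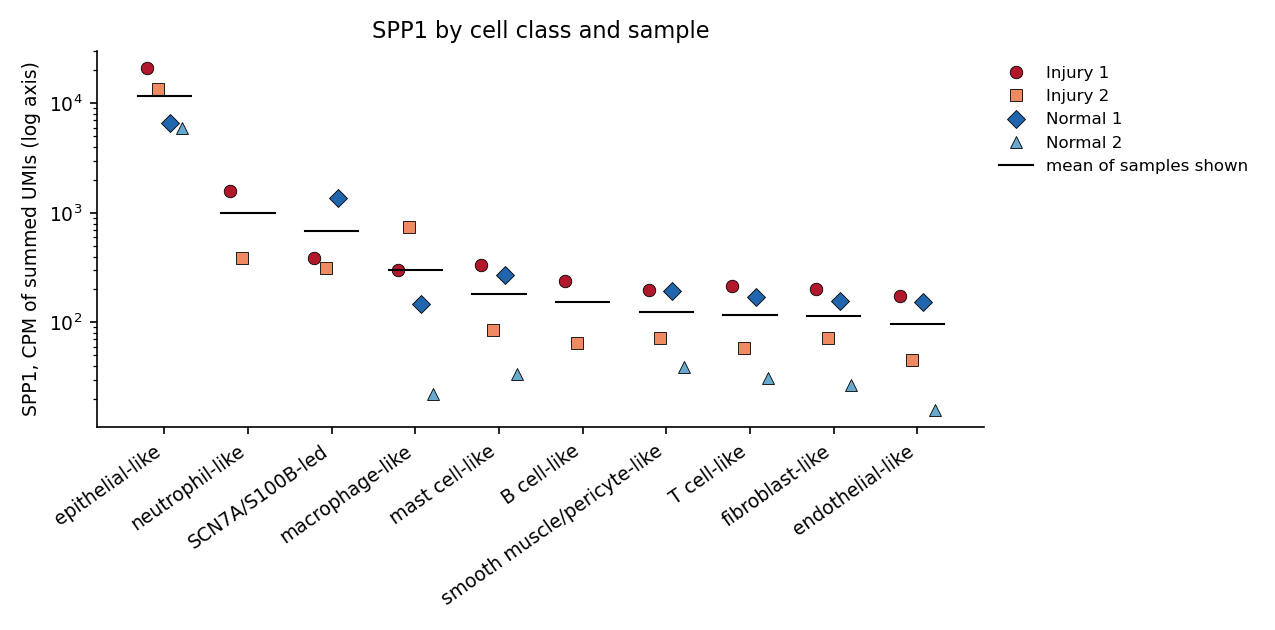
SPP1 level (CPM of UMIs summed over the cells of a class, log axis) for 10 cell classes, with 1 point per sample holding at least 20 cells of the class and a bar at the mean. The epithelial-like points, from 5924 to 21142 CPM, all lie above every point of the other classes, and in most other classes Injury_1 and Normal_1 are high while Injury_2 and Normal_2 are low.

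In both injured samples the epithelial level was above that of both normal ones, with no overlap, a position that 39.4% of the genes tested in epithelium shared, while 15.5% lay below in both injured samples. SPP1 was chosen with this pattern known. The injured mean was 17315 ± 5413 CPM and the normal mean 6259 ± 474 CPM (SD, n = 2 each), a difference of 1.43 in mean log2(CPM + 10). SPP1 transcripts per epithelial-like cell averaged 271 and 214 UMIs in the injured and 78.8 and 105 UMIs in the normal samples. By UMIs SPP1 ranked 2 among all genes of the epithelial-like cells in Injury_1 and 5 in Injury_2, against 23 in Normal_1 and 35 in Normal_2. Scaling by TMM, which uses the bulk of genes in place of total UMIs, lowered log2 differences between injured and normal epithelium by 0.25 relative to CPM, and the fitted SPP1 difference was then 1.21 (SE 0.32).

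Nearly every epithelial-like cell carried SPP1 in each sample, and the samples parted most among the cells with the highest counts. An SPP1 UMI was found in 99.8%, 98.6%, 97.5% and 97.1% of epithelial-like cells in Injury_1, Injury_2, Normal_1 and Normal_2. When each cell was thinned to 1000 UMIs the share was 92.2% ± 2.95 in injured and 94.8% ± 0.588 in normal samples (SD, n = 2 each), with 8 to 25 shallower cells per sample left out. The median cell held 142.5 and 86.5 SPP1 UMIs in Injury_1 and Injury_2 and 67 and 78 in Normal_1 and Normal_2, so that the medians of Injury_2 and Normal_2 were close. At the 90th percentile the counts were 655 and 554 UMIs in the injured samples and 165 and 228 in the normal ones. The highest cell reached 5431 UMIs in Injury_1 and 3606 in Injury_2, against 414 in Normal_1 and 427 in Normal_2. The tenth of cells with most SPP1 carried 45.4% of the epithelial SPP1 UMIs in Injury_1 and 54.5% in Injury_2, but 27.3% in Normal_1 and 31.3% in Normal_2. SPP1 took more than 5% of a cell's own UMIs in 84 cells of Injury_1 and 28 cells of Injury_2 and in 0 of 441 and 0 of 171 normal cells. The highest such share was 31.8% of a cell's UMIs in Injury_1 and 2.89% among normal cells.

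**Figure D2:**
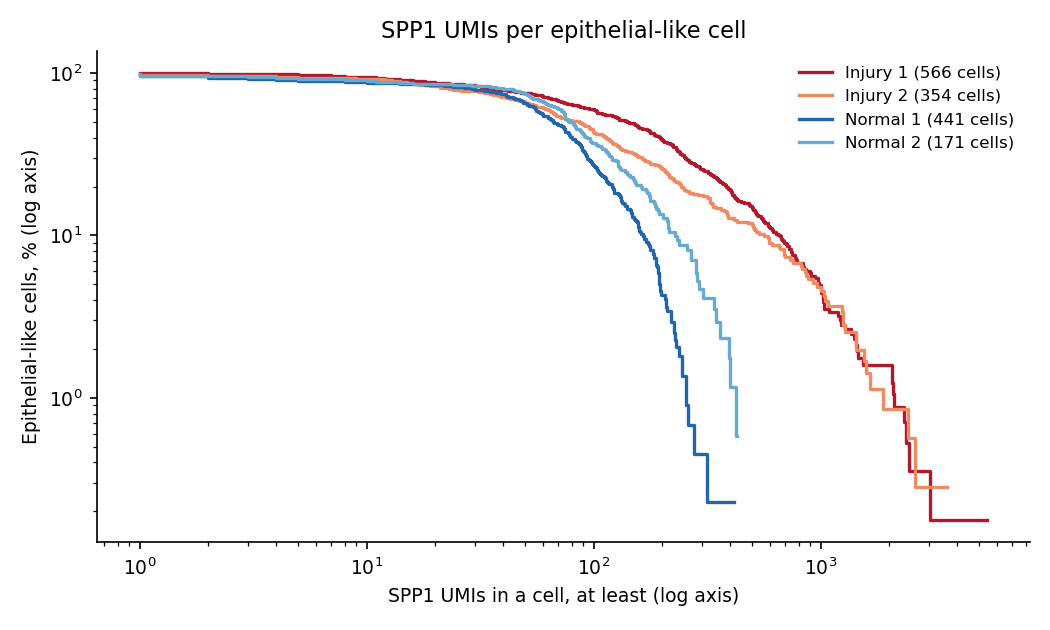
Percentage of epithelial-like cells (log axis) with at least the number of SPP1 UMIs on the horizontal axis (log axis), 1 line per sample. The 4 lines start together near 100% and part as the count grows, with 59.9% and 43.5% of injured and 27.2% and 36.8% of normal cells at 100 UMIs or more, and the normal lines end at 414 and 427 UMIs and the injured ones at 5431 and 3606.

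Among the 5 largest epithelial sub-clusters SPP1 was lowest in the one led by KRT5, a keratin of basal cells, and higher in the 3 with most UPK3B, which encodes a uroplakin, a plaque protein of the umbrella surface. Sub-clusters were made without SPP1 among the clustering genes. Sub-cluster 4 (195 cells), led by KRT5, PTHLH and ITGA2, had the lowest level of the 5 largest: 3078 and 1716 CPM in the injured and 3697 and 3070 CPM in the normal samples. Sub-cluster 0 (320 cells), led by F3, LAMA3 and LAMB3, gave 6544, 4580, 5241 and 4224 CPM in the same order of samples. In both of these the injured and the normal values overlapped.

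The higher levels were found in 3 sub-clusters with more uroplakin transcript. Sub-cluster 1 (317 cells), led by CRISP3 and UPK3B among others, reached 43692 CPM in Injury_1 and 22739 in Injury_2, against 9906 in Normal_1 and 13105 in Normal_2. Sub-cluster 2 (232 cells), led by SAMD9 and LMO7, gave 28851, 17718, 8272 and 11832 CPM. Injured and normal samples did not overlap in either, and the log2 differences were 1.47 and 1.19. The Normal_2 values rest on few cells, 20 in sub-cluster 1, 10 in sub-cluster 2, 13 in sub-cluster 3 and 10 in sub-cluster 4. Sub-cluster 3 (202 cells), led by PPP1R3C and UPK1B, was high in Injury_1 (29295 CPM) but lower in Injury_2 (7037 CPM) than in Normal_1 and Normal_2 (10950 and 11438 CPM), so its groups overlapped. With all samples summed, KRT5 was at 459 CPM in sub-cluster 4 and 24.4 CPM in sub-cluster 1, whereas UPK3B was at 5.61 and 243 CPM. The order did not follow uroplakin closely, since sub-cluster 3 had as much UPK3B (244 CPM) as sub-cluster 1 but less SPP1 (18992 against 26890 CPM). A small sub-cluster of 21 cells led by the proliferation genes TOP2A and CDK1 had 2840 CPM of SPP1, below the 3153 CPM of sub-cluster 4.

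The makeup of the epithelium differed between samples too. Sub-cluster 0 supplied 43.3% of the epithelial-like cells of Normal_2 and 15.6% to 20.9% in the other samples, and sub-cluster 4 supplied 26.3% in Normal_1 against 5.85% to 8.19%. Sub-cluster 1 supplied 27.2%, 17.5%, 18.4% and 11.7% in Injury_1, Injury_2, Normal_1 and Normal_2. The part of makeup in the class-wide difference was not tested; the values within sub-clusters stand above.

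**Figure D3:**
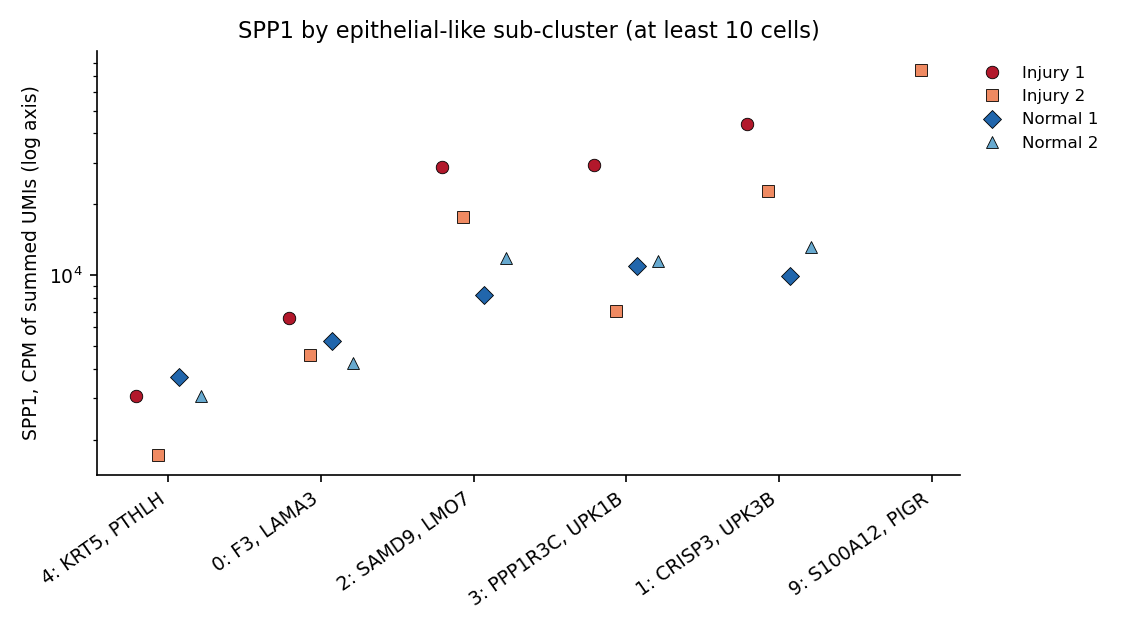
SPP1 level (CPM, log axis) in 6 epithelial-like sub-clusters named by leading genes, 1 point per sample with at least 10 cells. Levels are lowest in the KRT5-led sub-cluster (1716 to 3697 CPM) and span 9906 to 43692 CPM in the CRISP3- and UPK3B-led one. Between them the rise is not steady, and Injury_2 falls from 17718 CPM in sub-cluster 2 to 7037 CPM in sub-cluster 3. The sub-cluster led by S100A12 and PIGR has a single point, Injury_2, at 74366 CPM.

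Grouping the cells by detected KRT5 and uroplakin (UPK1B or UPK3B) UMIs alone gave the same order. Cells with a KRT5 UMI and no uroplakin UMI had 4283, 6953, 4220 and 4361 CPM of SPP1 in Injury_1, Injury_2, Normal_1 and Normal_2. Cells with a uroplakin UMI and no KRT5 UMI had 26102, 17128, 9490 and 11362 CPM. The injured samples were therefore above the normal ones in uroplakin-detected cells, by 1.03 in log2(CPM + 10), and overlapped them in cells with KRT5 alone, where the difference was 0.35. Cells with both markers had 19418 and 11218 CPM in the injured and 6516 and 9293 CPM in the normal samples, the latter from 14 and 6 cells. In cells with neither marker the levels were 11440 and 15668 CPM in the injured and 6907 and 5450 CPM in the normal samples. There too the groups did not overlap, and the difference was 1.12, so it was not limited to uroplakin-detected cells.

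A small sub-cluster stood apart. Sub-cluster 9 (17 cells) was led by S100A12, PIGR and S100A9, of which PIGR carries antibody across epithelia and the S100 proteins are calgranulins of neutrophils and stressed epithelium. It had 16 of its cells in Injury_2 and 1 in Injury_1. Its Injury_2 cells averaged 1163 SPP1 UMIs each and held 24.6% of that sample's epithelial SPP1 UMIs from 4.52% of its epithelial-like cells. Without sub-cluster 9 the epithelial level of Injury_2 was 10650 CPM, still above both normal samples, and the log2 difference was 1.26. Of these 17 cells 23.5% were among the highest-scoring 5% of their sample for doublets.

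Sub-clusters 6, 7 and 10 carried transcripts of other cell types. Sub-cluster 6 (58 cells) was led by COL1A1 and DCN, sub-cluster 7 (28 cells) by VWF and sub-cluster 10 (12 cells) by IL1B and HLA-DRA, with 33.3% to 46.4% of cells among the highest doublet scores. Sub-cluster 5 (130 cells) was set aside for few UMIs. Leaving out these, together with sub-cluster 9 since its leading genes include neutrophil markers, gave a log2 difference of 1.23.

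In macrophage-like cells the class-wide SPP1 level was 299 and 748 CPM in Injury_1 and Injury_2 and 146 and 22.0 CPM in Normal_1 and Normal_2. The injured mean of 523 ± 318 CPM exceeded the normal mean of 84.2 ± 87.8 CPM (SD, n = 2 each) by 2.77 in log2(CPM + 10). Most macrophage-like cells nevertheless held no more SPP1 than cells of other classes in the same droplet run. The mean per macrophage-like cell was 2.20, 5.54, 0.821 and 0.154 UMIs in Injury_1, Injury_2, Normal_1 and Normal_2. Per T cell-like cell it was 1.01, 0.30, 0.579 and 0.141 UMIs, and per endothelial-like cell 1.22, 0.324, 0.842 and 0.123 UMIs. In the normal samples the macrophage values were thus 1.42 and 1.09 times those of T cell-like cells, whereas in Injury_2 they were 18.4 times as high.

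The low, even level across classes moved with the library. With cells of 10 or more SPP1 UMIs set aside, fibroblast-like cells averaged 1.08, 0.357, 0.774 and 0.133 UMIs, endothelial-like cells 1.07, 0.30, 0.828 and 0.123 and macrophage-like cells 1.22, 0.534, 0.821 and 0.154, in the order Injury_1, Injury_2, Normal_1, Normal_2. In droplet data, RNA free in the suspension gives cells of every class a like low share of an abundant transcript; its part here was not tested. UMIs of 7 epithelial marker genes were also found in T cell-like cells, at 0.578, 0.482, 0.671 and 0.172 per cell. For each epithelial marker UMI there were 3.75, 14.6, 1.15 and 0.41 SPP1 UMIs in macrophage-like and 3.12, 2.28, 1.55 and 1.27 in fibroblast-like cells. The ratios were 2.92, 2.05, 1.52 and 1.15 in epithelial-like cells. They were 1.74, 0.623, 0.863 and 0.824 in T cell-like and 2.14, 1.18, 1.65 and 0.669 in endothelial-like cells. Cells with at least 10 SPP1 UMIs are included in these ratios. The Injury_2 macrophage-like ratio was the highest among classes with at least 20 cells in a sample. The next, 10 in Injury_2 neutrophil-like cells, came from 20 SPP1 and 2 marker UMIs.

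**Figure D4:**
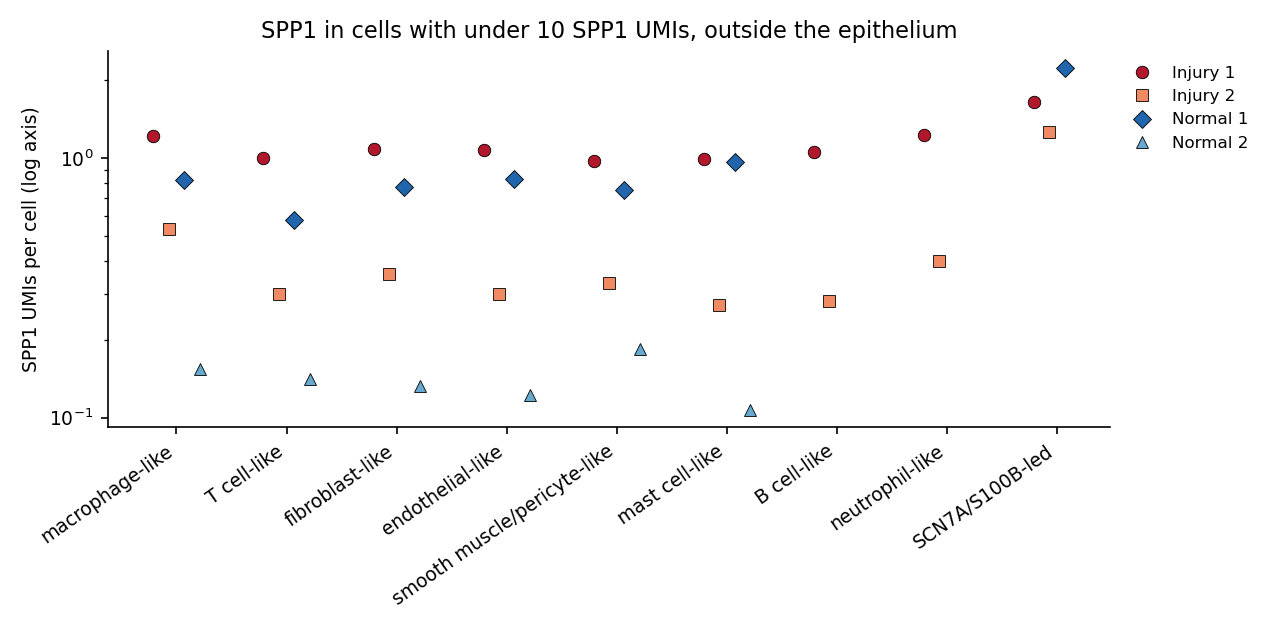
Mean SPP1 UMIs per cell (log axis) in 9 non-epithelial classes after cells with at least 10 SPP1 UMIs were set aside, 1 point per sample with at least 20 cells of the class. Within T cell-like, fibroblast-like and endothelial-like cells Injury_1 lies near 1 UMI per cell and Normal_2 between 0.123 and 0.141, and the cluster led by SCN7A and S100B lies above the other classes.

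Detection of SPP1 outside the epithelium differed between libraries in the same order. An SPP1 UMI was present in 64.5% and 36.7% of macrophage-like cells of Injury_1 and Injury_2 and in 53.6% and 12.5% of those of Normal_1 and Normal_2, at median depths of 6825, 6916, 6080 and 5976 UMIs. T cell-like cells, with median depths of 3054 to 3925 UMIs, had 58.3%, 24.8%, 42.1% and 5.05%, and fibroblast-like cells, with median depths of 5080 to 8518 UMIs, 64.5%, 27.4%, 50.1% and 11.4%. Thinned to 1000 UMIs per cell, macrophage-like cells had 17.5%, 11.7%, 15.1% and 2.04% and fibroblast-like cells 14.2%, 4.96%, 14.0% and 2.10%; in this step 3 to 8 macrophage-like cells per sample were too shallow and were left out. Shares near those of T cell-like or fibroblast-like cells of the same sample are not read as expression. The thinned share of Injury_2 macrophage-like cells was above both, and in the cluster led by SCN7A and S100B the thinned shares were 33.8%, 22.1% and 60.6% in Injury_1, Injury_2 and Normal_1, against 25%, 7.80% and 18.0% in T cell-like cells.

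A few macrophage-like cells of the injured samples carried far more SPP1. There were 26 cells with at least 10 SPP1 UMIs, a limit set after the values were seen, with 5 of 535 in Injury_1 (0.935%, Wilson 95% interval 0.40 to 2.17%) and 21 of 444 in Injury_2 (4.73%, 3.11 to 7.12%). Normal_1 had 0 of 112 cells, where a count of 0 leaves room for up to 2.68%, and Normal_2 had 0 of 104, with room for up to 2.88%. These limits are 3 divided by the number of cells, and the Wilson upper limits were 3.32% and 3.56%. All these intervals and limits cover counting error only. T cell-like cells had 0 of 1058 over all samples (up to 0.284%), and the highest of them held 9 UMIs. Fibroblast-like cells had 1.34%, 0.832%, 0.163% and 0.215% in Injury_1, Injury_2, Normal_1 and Normal_2. In Injury_1 the fibroblast share was thus above the macrophage share. Near the limit, 19 macrophage-like cells had 5 to 9 UMIs and 6 had 10 to 19. The 26 cells ranged from 10 to 538 SPP1 UMIs with a median of 48, and carried 45.2% of the macrophage SPP1 UMIs of Injury_1 and 90.8% of those of Injury_2. None held more than 1 UMI of the epithelial markers, and 4 were among the highest-scoring 5% for doublets. Leaving out these cells reduced the macrophage log2 difference from 2.77 to 0.78, with Injury_2 at 73.5 CPM and below Normal_1.

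**Figure D5:**
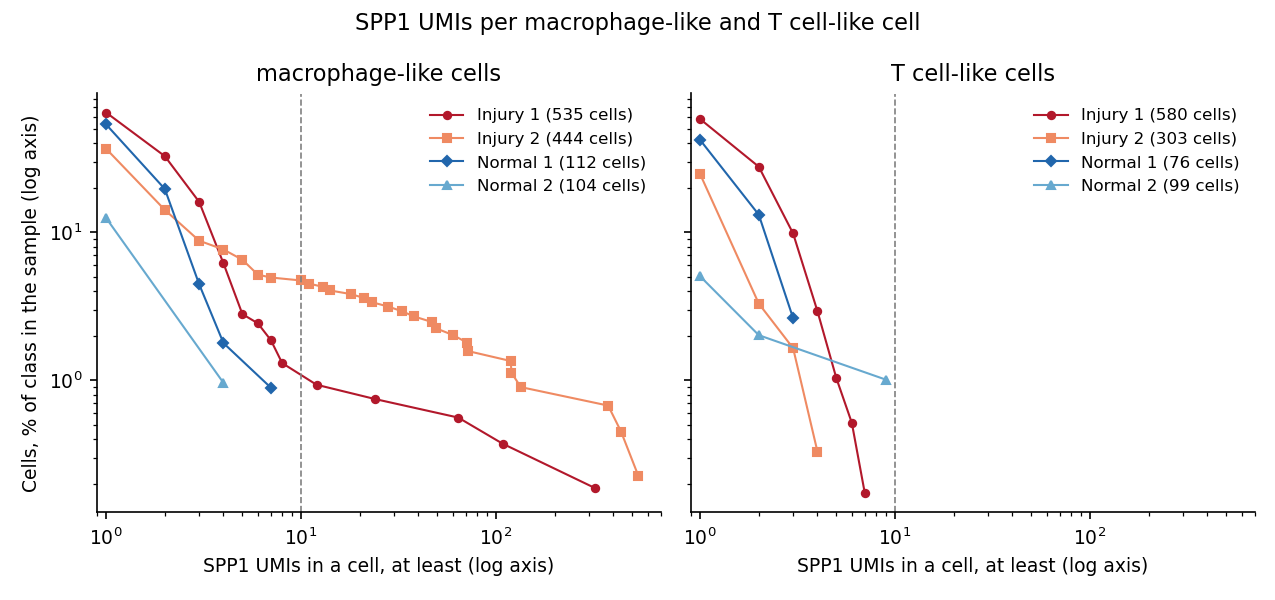
Percentage of macrophage-like cells (left) and T cell-like cells (right) of each sample (log axis) with at least the number of SPP1 UMIs on the horizontal axis (log axis), and a dashed line at 10 UMIs. Both injured samples have a tail of macrophage-like cells beyond the line, up to 323 and 538 UMIs, while the normal samples end at 7 and 4 UMIs and the T cell-like cells at 9.

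The cells were spread over several macrophage sub-clusters. Of the 26 cells 24 belonged to the C1Q-led cluster 10 (608 CPM of SPP1) and 2 to cluster 14, led by HLA-DRA and CD74 (151 CPM). Sub-cluster 5, led by MMP12, GPNMB, ATP6V0D2 and CHI3L1, held 13 of them, and the other 13 lay in sub-clusters 1 (5 cells), 2 (3 cells), 8 (2 cells), 0, 3 and 6 (1 cell each). No UMI of GPNMB, MMP12 or LPL was found in 6 of the 26. Although cluster 10 was led by C1Q genes, most of the 26 cells had no UMI of C1QA, C1QB or C1QC. Such a UMI was found in 2 of them in Injury_1 and 1 in Injury_2, while 3 and 20 had none. C1QA was detected in 11.5% of the 26 cells and in 20.7% of the other macrophage-like cells of the injured samples. Sub-cluster 5 comprised 47 cells of Injury_1 (8.79% of its macrophage-like cells), 36 of Injury_2 (8.11%) and 0 cells of either normal sample. Its SPP1 level was 907 CPM in Injury_1 and 4634 CPM in Injury_2. In Injury_2 11 of its 36 cells passed 10 UMIs, and in Injury_1 2 of 47 did.

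Compared with the 953 other macrophage-like cells of the injured samples, the 26 cells had higher values for 8 of 9 measured lipid-associated macrophage genes, 5 of them by more than 1 in log2(CPM + 10). ARG1 was the exception, at 680 against 1076 CPM, and the smallest rise in log2 was that of PLIN2, at 2766 against 2249 CPM. How many of all genes were higher in the 26 cells was not counted, so the 8 of 9 has no background to be read against. LPL, the lipoprotein lipase, was at 703 against 74.9 CPM. GPNMB, a lysosomal glycoprotein of lipid-laden macrophages, was at 2931 against 746 CPM. The fatty acid carrier FABP5 was at 4731 against 1574 CPM, galectin-3 (LGALS3) at 8759 against 3643 CPM and fibronectin (FN1) at 1345 against 490 CPM. The elastase MMP12, which also cuts osteopontin, was at 913 against 189 CPM, but a single Injury_2 cell held 168 of the 243 MMP12 UMIs, and without it the level was 305 CPM. Without the cell richest in each, an alternative chosen after seeing the data, GPNMB was at 2314.5 CPM and LPL at 551 CPM. The 13 cells in sub-cluster 5 held up to 203 GPNMB, 168 MMP12 and 46 LPL UMIs each. The other 13 held at most 10, 3 and 5, so the levels of these genes rest mainly on sub-cluster 5. Among 9 genes of resident macrophages 3 were higher and 3 were lower by more than 1, namely C1QB, C1QC and the hyaluronan receptor LYVE1. The osteopontin receptor subunit ITGA4 was at 26.3 against 130 CPM and CD44 at 906 against 740 CPM. The 26 cells were chosen by their SPP1 count, and 21 of them come from Injury_2, against 423 of the 953 others. These values are therefore a description of those 26 cells, and the part of the sample in them was not tested.

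Outside epithelium and macrophages SPP1 lay above the shared level in a few cells. Fibroblast-like cells had 56 of 8905 cells with at least 10 SPP1 UMIs (median 25.5, highest 282), of which 52 had fewer than 5 epithelial marker UMIs. Cluster 1, led by SFRP2, MFAP5 and PCOLCE2, held 29 of them (1.22% of the cluster) and cluster 7, led by APOD and CP, held 25 (1.85%), while the clusters 3 and 4 held 1 each. By sample they were 27 of 2022, 20 of 2405, 2 of 1227 and 7 of 3251 fibroblast-like cells in Injury_1, Injury_2, Normal_1 and Normal_2. In the cluster led by SCN7A and S100B, of which S100B marks glia of nerves, SPP1 averaged 1.65 UMIs per cell in Injury_1, 1.51 in Injury_2 and 3.48 in Normal_1, measured in 37, 47 and 25 cells. These were 1.64, 5.03 and 6.01 times the T cell-like values, while epithelial marker UMIs per cell were 0.795, 0.574 and 1.01 times the T cell-like ones. In Injury_1 fibroblast-like cells stood at 1.67 times the T cell-like SPP1 value, no lower than the cluster. Neutrophil-like cells ranked high in CPM and held few UMIs, a median of 669 in Injury_1 and 802 in Injury_2. Their SPP1 per cell, 1.22 and 0.40 UMIs, was 1.22 and 1.33 times that of T cell-like cells.

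No other measured SIBLING gene shared the epithelial pattern. Of the 5 family members 4 were measured, SPP1 included, and DSPP had no row under its symbol. IBSP, which encodes bone sialoprotein, was found in smooth muscle and pericyte-like cells at 841, 734, 1095 and 1148 CPM in Injury_1, Injury_2, Normal_1 and Normal_2, and at 3.57 ± 6.83 CPM in epithelial-like cells (SD, n = 4). DMP1 and MEPE, known from bone and tooth, had 0 UMIs in epithelial-like and macrophage-like cells.

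The receptors of osteopontin were spread over several classes. CD44 averaged 1033 ± 358 CPM in mast cell-like, 625 ± 220 in macrophage-like, 390 ± 174 in T cell-like and 79.1 ± 14.3 CPM in epithelial-like cells. ITGA4, whose product pairs with beta-1 or beta-7 on leukocytes, averaged 239 ± 88.5 CPM in T cell-like and 143 ± 34.1 CPM in macrophage-like cells but 0.664 ± 0.511 CPM in epithelial-like cells. ITGAV, the alpha-v chain, was at 221 ± 62.8 CPM in the cluster led by SCN7A and S100B (n = 3) and at 128 ± 58.7 CPM in epithelial-like cells (SD, n = 4 unless given). ITGB6, which pairs with alpha-v in epithelia, had 298 UMIs in epithelial-like cells and 0 in macrophage-like cells.

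Injured and normal epithelium were compared gene by gene with edgeR's quasi-likelihood test on UMIs summed per sample, with Benjamini-Hochberg adjustment over the 7046 genes tested. At an adjusted p under 0.05, 117 genes passed (1.66%), 44 higher in injury (0.624%) and 73 lower (1.04%). Of the 11 receptor genes 7 were in the matrices and 4 were tested, and 1 fell. ITGB6 was at 5.10 and 2.85 CPM in Injury_1 and Injury_2 and at 33.9 and 21.7 CPM in Normal_1 and Normal_2, a log2 fold change of -3.03 (SE 0.38, edgeR adjusted p = 0.032). Without Injury_2 its adjusted p was 0.063. ITGAV was at 95.6, 68.5, 148 and 201 CPM (log2 fold change -1.37, SE 0.32, edgeR adjusted p = 0.092), and CD44 at 77.4, 90.4, 89.1 and 59.5 CPM (edgeR adjusted p = 0.925). The median log2 fold change of the 4 was -1.11, against -0.0039 over all genes tested.

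Of 9 measured genes that act on mineral, 5 were tested and 1 fell, ALPL, the alkaline phosphatase that frees phosphate by cleaving pyrophosphate. It was at 12.7 and 16.0 CPM in the injured and 56.3 and 51.6 CPM in the normal samples (log2 fold change -2.16, SE 0.28, edgeR adjusted p = 0.036). With the replicate number as a block its adjusted p was 0.056, and without Injury_1 or Injury_2 it was 0.179 and 0.076. ENPP1, which makes pyrophosphate, was at 3.72, 3.56, 11.8 and 8.55 CPM (edgeR adjusted p = 0.081). UMOD, the urinary crystal-binding protein of the kidney, had 0 CPM in epithelial-like cells of every sample.

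Of 7 measured regulators of SPP1 transcription all were tested and none passed. FOSL1, an AP-1 subunit, was at 225, 271, 436 and 767 CPM in Injury_1, Injury_2, Normal_1 and Normal_2 (log2 fold change -1.57, SE 0.41, edgeR adjusted p = 0.115), and JUN was at 1007, 1527, 1032 and 1077 CPM (edgeR adjusted p = 0.986). RUNX2, the bone factor, was at 1.32 to 4.55 CPM. Of the enzymes that cut or cross-link osteopontin 4 were measured and 2 tested, and neither passed. MMP3 was at 1.38, 3.38, 14.8 and 46.0 CPM (edgeR adjusted p = 0.076).

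Genes of the urothelial layers were examined beside SPP1. Of 6 measured basal genes 5 were tested and 2 fell, the laminin chains LAMA3 and LAMB3, with log2 fold changes of -4.74 and -4.03 (SE 0.55 and 0.45, edgeR adjusted p = 0.028 and 0.027). KRT5 was at 64.8, 175, 183 and 116 CPM (edgeR adjusted p = 0.593). Both measured uroplakins were tested and none passed, with UPK3B at 236 and 82.2 CPM in the injured and 35.7 and 11.2 CPM in the normal samples (log2 fold change 2.52, SE 0.61, edgeR adjusted p = 0.101). Of 6 measured epithelial injury genes 2 fell, tissue factor (F3) by 4.16 and the growth factor HBEGF by 1.57 on the log2 scale (SE 0.47 and 0.25, edgeR adjusted p = 0.027 and 0.048). F3, LAMA3 and LAMB3 are also among the leading genes of sub-clusters 0 and 4, whose shares were higher in Normal_2 (43.3% for sub-cluster 0) and Normal_1 (26.3% for sub-cluster 4) than in the other samples. The part of these shares in the calls was not tested. HBEGF lost its call with the replicate block (edgeR adjusted p = 0.068), without Injury_1 (0.220), without Injury_2 (0.291) and at a mitochondrial limit of 10% (0.054). The lists of 9 lipid-associated and 3 resident macrophage genes tested in epithelium gave 0 calls.

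In macrophage-like cells no gene of 5482 passed edgeR's test at an adjusted p under 0.05 (0%), while 776 had an unadjusted p under 0.05 and DESeq2 called 68. No list therefore had a call. Both injured values lay above both normal values for 30.8% of the tested genes and below them for 16.3%, in CPM. Among the 9 lipid-associated genes this was so for 8 above and 1 below, with a median log2 fold change of 1.30 against -0.0012 over all genes. GPNMB was at 957 and 670 CPM in Injury_1 and Injury_2 and at 3.18 and 16.5 CPM in Normal_1 and Normal_2 (log2 fold change 6.19, SE 0.60, edgeR adjusted p = 0.078). LGALS3 was at 5002, 2430, 345 and 599 CPM (edgeR adjusted p = 0.116), and LPL at 84.1, 115, 23.8 and 49.6 CPM (edgeR adjusted p = 0.254). ARG1 was the exception, at 1241, 846, 2593 and 1956 CPM (edgeR adjusted p = 0.163). MMP12 had 294 and 123 CPM in the injured samples and 0 UMIs in the normal ones (edgeR adjusted p = 0.078). Of 9 resident macrophage genes none was above and 1, LYVE1, was below in both injured samples, and the median was -0.32. Medians were -0.065 for 4 receptor genes, 0.10 for 6 regulators and -1.42 for 4 mineral genes tested.

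The genes whose level over class and sample followed SPP1 most closely were SF3B2 (Pearson r = 0.916), LAD1 (0.898), GSTA5 (0.898), KRT18 (0.884) and KRT15 (0.875), over 35 class-by-sample sums and 2928 genes on the log2(CPM + 10) scale. The SF3B2 row is named as deposited; the name is that of a splicing factor made by most cells, its level here was 9443 CPM in epithelium against 351 CPM in the other classes, and which transcript the row counts was not checked. The sums share libraries, and KRT18 and KRT15 were themselves used to name the epithelium. Without the epithelial sums r was 0.745, 0.718, 0.686, 0.634 and 0.573. Within the epithelium SF3B2 was at 18453, 9468, 6959 and 2893 CPM in Injury_1, Injury_2, Normal_1 and Normal_2 and LAD1 at 296, 193, 99.8 and 119 CPM, whereas GSTA5, a glutathione transferase, was at 11028, 12667, 12822 and 6935 CPM with overlapping groups.

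Macrophage-like cells with and without an SPP1 UMI were compared among genes that differed in the same direction in all 4 samples, as the naming rule required. The 5 largest were CTSE (mean log2 difference 0.73), LIMA1 (0.70), BAZ2B (0.70), HES1 (-0.68) and AREG (0.68). Their agreement between samples was part of the choice and is not a result. In Injury_1 the differences were 0.44, 0.17, 0.098, -0.26 and 0.020 in the same order of genes. Normal_2 had only 13 cells with an SPP1 UMI. The cells were not thinned for this comparison, and detection in macrophage-like cells was close to that of other classes in most samples. In epithelial-like cells AREG was at 5868, 3444, 6017 and 5472 CPM in Injury_1, Injury_2, Normal_1 and Normal_2. CTSE was among the leading genes of an epithelial-like cluster and of macrophage sub-cluster 5. The part of free RNA in these differences was not tested. The same comparison could not be made across samples in epithelial-like cells, since 1, 5, 11 and 5 cells lacked an SPP1 UMI in Injury_1, Injury_2, Normal_1 and Normal_2.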

How the data were processed

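Per the file headers and the study's methods, the authors mapped 10x Chromium 3' v3 reads with Cell Ranger 6.0.1 and deposited 1 filtered matrix of UMI counts per sample; the genome build is not given in the sources used here. Seurat is named in the submitters' notes. Members and gene lists were chosen with earlier results of these data known.

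From the deposited counts, cells with at least 500 UMIs, 200 genes and at most 15% of UMIs from 13 mitochondrial genes were kept. Doublets were scored with Scrublet in scanpy 1.11.5 and kept in the main analysis; its own limit called 95, 76, 11 and 180 barcodes in Injury_1, Injury_2, Normal_1 and Normal_2, and its low number in Normal_1 was not relied on; the top 5% of scores per sample was removed as an alternative. Cells were integrated by CCA in Seurat 5.3.0 (2000 variable genes, SPP1 among them, 30 principal components, resolution 0.8) and clusters were named from marker lists. Leaving SPP1 out of clustering kept the 1532 epithelial-like cells. Of the 18475 rows 9771 carry a gene symbol, and list genes with no row under their symbol are not analysed here.

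SPP1 was summed per class and sample as CPM, with log2(CPM + 10) for differences. Counts summed over epithelial-like and macrophage-like cells were tested between 2 injured and 2 normal samples with edgeR 4.0.16 (filterByExpr, TMM, no covariate) in R 4.3.3, on code checked with simulated counts, with DESeq2 1.42.0 as an alternative. SPP1 got no p-value. SE was derived from the quasi-likelihood F. Named genes were SPP1, the list members, the 5 genes most correlated with SPP1 over class-by-sample sums (at least 50 CPM in 3 sums), and the 5 that differed most between cells with and without an SPP1 UMI in a constant direction. The limit of 10 SPP1 UMIs per cell and the alternatives on sub-clusters, background and high cells were chosen after seeing the data.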

Additional observations from a re-analysis of the deposited data

How the results depend on the processing

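The epithelial SPP1 difference of 1.43 (log2) stayed within 1 SD of the replicates under all 18 alternatives, from 1.11 to 1.76. The macrophage difference of 2.77 ranged from 1.63 to 3.92 when 1 sample was left out, fell to 0.78 without the cells of at least 10 SPP1 UMIs, and stayed within 1 SD in the other 17. Detection depends on depth: thinned to 2000 UMIs, and unthinned, it was 96.5% and 99.2% in injured and 98.6% and 97.3% in normal epithelium, 23.6% and 50.6% in injured macrophages, and unthinned 33.0% in normal ones. Counts of epithelial genes past the threshold (117) came to 485 with DESeq2, 967 with no filter on low counts, 50 at a mitochondrial limit of 10%, 238 without the sub-clusters set aside, and 50 to 476 with 1 sample left out (50 without Injury_1, 53 without Injury_2, 417 without Normal_1, 476 without Normal_2). In macrophages 0 calls became 68 with DESeq2, 440 with no filter, 9 without the highest doublet scores, 16 without the sub-clusters set aside, and 22 to 363 with 1 sample left out. The lone sample of a group was then assumed to vary like the other group. The causes of these shifts were not tested. With the replicate number as a block the counts were 58 and 108. Deviations of same-numbered samples correlated at 0.093 and -0.026 over genes. With 2 pairs only, these correlations cannot show whether same-numbered samples share an animal or a run, which the labels do not say. LAMA3, LAMB3 and F3 kept their calls under all 16 alternatives. With 112 and 104 macrophage-like cells, the counts of 0 in the normal samples do not exclude shares of SPP1-rich cells up to 2.68% and 2.88%.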
